A study of Mus musculus with 8 samples.

Results

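The genes described here are 9 genes of retinoid metabolism and binding, *Rbp4*, *Stra6*, *Rdh10*, *Aldh1a1*, *Aldh1a2*, *Aldh1a3*, *Crabp1*, *Crabp2* and *Cyp26b1*. They were chosen by gene symbol and make up 9 of the 21905 gene symbols measured on the arrays. Each was represented by a single transcript cluster, the set of probes that the array summarises as 1 value. Whole adrenals of 4 *sf1:Cre; Prkar1a Fl/Fl* mice (knockout, KO) and of 4 wild-type littermates (WT) were hybridised to Affymetrix Mouse Gene 2.0 ST arrays, 1 array per sample. All mice were female, 6 weeks old and of a mixed background. In KO mice Cre recombinase under *Sf1* regulatory sequences deletes the floxed *Prkar1a* alleles in all steroidogenic cells of the cortex from its inception. The paper does not say whether cells of the medulla, capsule, vessels or attached fat also carry the deletion. *Prkar1a* encodes the regulatory subunit that holds the catalytic subunits of PKA in check. The labels call the controls WT and do not say whether they carried floxed alleles.

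Retinol travels in blood bound to RBP4 and can enter cells through the receptor STRA6. Inside cells, retinol is oxidised to retinal, chiefly by RDH10, and retinal is oxidised irreversibly to retinoic acid by the aldehyde dehydrogenases ALDH1A1, ALDH1A2 and ALDH1A3. CRABP1 and CRABP2 bind retinoic acid in the cytoplasm, CYP26 enzymes break it down, and nuclear RAR and RXR receptors carry its signal to target genes. In the adrenal, retinoids are known for roles in cortex development and in the turnover of its zones.

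Of the 9 genes, *Aldh1a2* and *Rbp4* fell and *Rdh10* rose in KO adrenals, whereas 6 did not pass the threshold. The clearest difference was in *Aldh1a2*, with an average 3.79-fold lower in KO adrenals. *Aldh1a1*, another gene of retinoic acid synthesis, averaged higher in KO adrenals but spread so widely among KO arrays that it did not pass.

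The promoters of *Aldh1a2* and *Rbp4*, the pair that fell, are shown because PKA acts on many genes through cAMP response elements near the start of transcription. The windows run from 250 bases before to 50 bases after a RefSeq transcription start (GRCm38.p6), and 6 of the 9 genes had at least 1 window. *Aldh1a2* has 1 window, chr9:71215539-71215838 on the plus strand. *Rbp4* has 2 windows on the minus strand, chr19:38125272-38125571 around an outer start and chr19:38124762-38125061 around an inner start, with 510 bases between the starts. Capitals mark every match, on either strand, to the full cAMP response element TGACGTCA, its core TGACG, the nuclear receptor half-site AGGTCA, the steroidogenic factor 1 site CAAGGTCA (which contains AGGTCA), direct repeats of AGGTCA spaced by 2 or 5 bases as retinoic acid receptors bind them, and the TATA box TATAAA. The full element contains the core on both strands.
Aldh1a2: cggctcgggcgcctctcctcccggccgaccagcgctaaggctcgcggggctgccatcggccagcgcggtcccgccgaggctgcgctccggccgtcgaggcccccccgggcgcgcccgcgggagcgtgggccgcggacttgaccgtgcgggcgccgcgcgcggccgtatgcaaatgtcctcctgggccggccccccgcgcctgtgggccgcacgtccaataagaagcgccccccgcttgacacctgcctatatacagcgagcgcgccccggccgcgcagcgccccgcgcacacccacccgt
Rbp4 outer start: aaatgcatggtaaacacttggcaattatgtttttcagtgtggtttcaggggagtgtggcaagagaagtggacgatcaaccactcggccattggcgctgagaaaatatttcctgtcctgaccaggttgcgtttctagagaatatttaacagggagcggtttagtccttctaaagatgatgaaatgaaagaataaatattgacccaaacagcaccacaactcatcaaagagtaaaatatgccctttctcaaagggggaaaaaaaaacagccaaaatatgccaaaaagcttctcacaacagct
Rbp4 inner start: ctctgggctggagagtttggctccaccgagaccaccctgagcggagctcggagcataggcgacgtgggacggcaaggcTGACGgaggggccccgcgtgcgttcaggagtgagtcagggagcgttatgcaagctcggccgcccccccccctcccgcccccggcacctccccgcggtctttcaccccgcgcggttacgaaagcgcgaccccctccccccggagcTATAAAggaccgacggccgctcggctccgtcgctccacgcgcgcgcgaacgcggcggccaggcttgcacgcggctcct
The *Aldh1a2* window and the outer *Rbp4* window hold none of these motifs. The inner *Rbp4* window holds 1 TGACG, 172 bases before the start, and 1 TATAAA, 28 bases before it. Among all 32851 RefSeq windows of this length, 20.8% hold TGACG, 13.6% hold TATAAA, 16.3% hold AGGTCA, 1.56% hold CAAGGTCA and 1.79% hold TGACGTCA. The repeats spaced by 2 or 5 bases occur in 0.00913% each. In the windows of *Aldh1a1*, *Crabp1*, *Stra6* and *Cyp26b1* the only match was a TATAAA of *Cyp26b1*, 139 bases before its start. A match describes the letters of the window and is not a measured binding site.

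The values below are RMA values on the log2 scale, so a difference of 1 is a doubling. They were compared with limma, a linear model per transcript cluster, two-sided, with p-values adjusted over 22822 clusters. Genes with an adjusted p under 0.05 counted as changed. Array medians over these clusters lay between 5.83 and 5.87 in KO and between 5.86 and 5.89 in WT arrays, and arrays correlated at 0.978 to 0.984 between genotypes and at 0.990 to 0.995 within them. *Prkar1a*, the targeted gene, had values of 6.92, 7.30, 7.34 and 7.19 in KO adrenals against 8.83, 9.11, 9.04 and 8.70 in WT adrenals (log2 fold change -1.73, SE 0.117, adjusted p = 1.19e-05 from limma), and whether its probes lie in the deleted part was not examined. All 8 defining markers of the steroidogenic cortex were measured. Their mean log2 value was up to 12.16 in KO arrays, each above every WT array, and 11.84 to 11.99 in WT arrays. These means lean on *Fdx1* (log2 fold change 1.30) and do not show a shared rise of the 8 markers. Of the 8, 2 were higher, 1 was lower, *Mc2r* (-0.61), and 5 did not pass, with a median log2 fold change of 0.00295. Clusters of 1105 olfactory receptor genes, a class chosen after the values were seen as one with little reason to be transcribed here, had a median of 3.26 and a 95th percentile of 5.27, and a gene near or below this level may not be measured above background. Arrays carry no read depth, and their number limits the precision. In whole glands, fewer cells of a type and less RNA per cell cannot be told apart.

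At an adjusted p under 0.05, 1 of the 9 genes was higher and 2 were lower in KO adrenals. Over all symbols tested, 7.47% were higher and 6.30% lower, 13.8% in all (7.35% higher and 6.17% lower when each of the 22822 clusters was counted, 13.5% in all). The genotypes did not overlap in the same 3 genes, against 19.3% of all symbols, 10.2% with KO above WT and 9.11% with KO below. The median log2 fold change was -0.054 over the 9 genes and -0.0201 over all symbols. With 1 and 2 genes called, these counts are too small to set apart from the shares of all symbols, and the results below are about single genes.

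**Figure D1:**
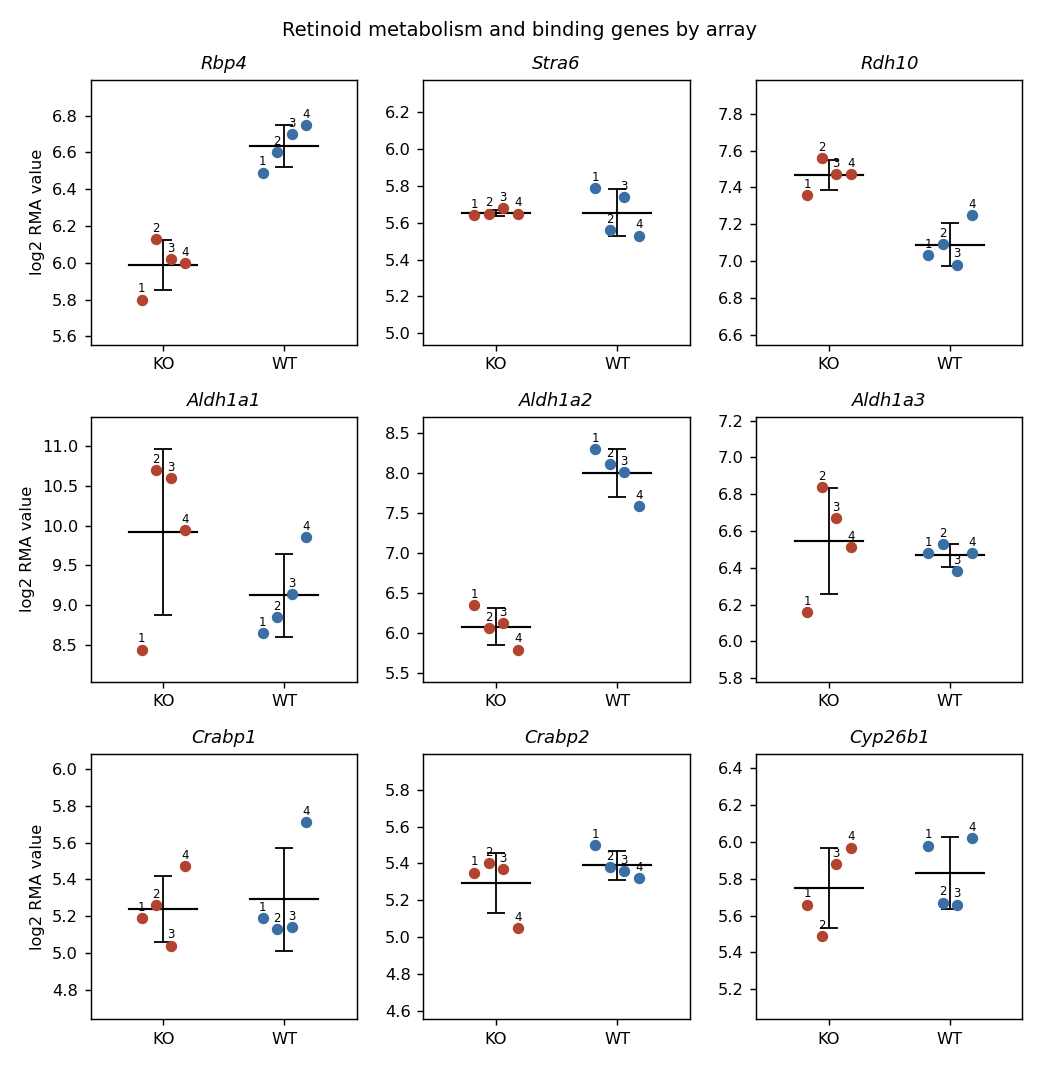
Log2 RMA value of each of the 9 genes in 4 KO (red) and 4 WT (blue) adrenals, with replicate numbers, the mean and 1 SD. KO and WT points do not overlap for *Rbp4*, *Rdh10* and *Aldh1a2*, and *Aldh1a1* in KO replicate 1, at 8.44, lies far below the other KO arrays. Each panel has its own axis.

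The carrier *Rbp4*, made chiefly by liver and by adipocytes and secreted with retinol, was lower in KO adrenals. Its values were 5.80, 6.13, 6.02 and 6.0 in KO arrays against 6.49, 6.60, 6.70 and 6.75 in WT arrays. The highest KO array lay below the lowest WT array, and the mean was 5.99 ± 0.139 in KO and 6.63 ± 0.116 in WT adrenals (SD, n = 4 each). *Rbp4* fell by 0.65 (log2, 95% confidence interval -0.84 to -0.45, SE 0.0883), with an adjusted p of 7.85e-04 from limma. Most markers of adipocytes were lower as well. Of 11 measured of 12 listed, 8 were lower and none was called higher. Their log2 fold changes ran from -4.55 to 1.05, so not all of them averaged lower. Their mean log2 value ran from 6.67 to 8.30 over KO arrays against 7.91 to 9.95 over WT arrays. *Ucp1*, the uncoupling protein of brown fat, had 4.25, 4.71, 4.69 and 4.96 in KO arrays against 5.95, 9.91, 10.30 and 10.64 in WT arrays. It was lower in KO adrenals, but its KO values lay in the background range and WT replicate 1 lay far below the other WT arrays, so the size of the change is not exact. *Retn*, the adipocyte hormone resistin, fell by 2.43 (log2), although only 2 of the 8 had no overlap between the genotypes. Of 6 hepatocyte markers, 1 was higher and none lower. All 6 zona glomerulosa markers and 2 of 3 X-zone markers were lower in KO adrenals too. The part of fat or of these zones in the difference of *Rbp4* was not tested.

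*Stra6*, the membrane receptor that takes retinol from RBP4, had values of 5.64, 5.65, 5.68 and 5.65 in KO arrays against 5.79, 5.56, 5.74 and 5.53 in WT arrays. The KO values sat inside the WT range. The log2 fold change was -0.0017 (SE 0.0742), with an interval of -0.17 to 0.16, and its sign turned when arrays were centred on their medians. The interval leaves room for differences of this size in either direction.

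*Rdh10*, the retinol dehydrogenase that makes most of the retinal used for retinoic acid in the mouse embryo, was higher in KO adrenals. Its values were 7.36, 7.56, 7.47 and 7.47 in KO arrays against 7.03, 7.09, 6.98 and 7.25 in WT arrays. Every KO array lay above every WT array, with the closest pair KO replicate 1 and WT replicate 4. *Rdh10* rose 1.3-fold, by 0.38 (log2, interval 0.20 to 0.55, SE 0.078), with an adjusted p of 0.00918 from limma. With a per-gene test of unequal variances in place of limma the adjusted p was 0.0535, above the threshold. Markers of endothelium and of gonadal cells differed in the same direction. Of 7 endothelial markers 4 were higher and none lower, with a mean log2 value of 9.16 to 9.36 in KO against 8.92 to 9.09 in WT arrays. Of 6 gonadal markers 2 were higher and none lower, with 5.65 to 6.07 in KO against 5.35 to 5.55 in WT arrays. These means lean on *Hsd17b3*, which did not pass. Its values were 7.36, 5.05, 5.42 and 5.45 in KO arrays against 4.75, 4.84, 4.74 and 4.71 in WT arrays. The part of endothelial and gonadal cells in the *Rdh10* difference was not tested.

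The 3 retinal dehydrogenases behaved differently. *Aldh1a2*, which makes retinoic acid in most of the early mouse embryo, had values of 6.35, 6.06, 6.12 and 5.79 in KO arrays against 8.30, 8.11, 8.01 and 7.59 in WT arrays. The gap between the highest KO and the lowest WT array was larger than the range within either genotype, 0.56 in KO and 0.72 in WT. *Aldh1a2* averaged 6.08 ± 0.229 in KO and 8.0 ± 0.303 in WT adrenals (SD, n = 4 each) and fell by 1.92 (log2, interval -2.27 to -1.58, SE 0.155), with an adjusted p of 3.28e-05 from limma. It was the only one of the 9 genes that also changed by more than 1. Leaving out each array in turn gave log2 fold changes between -2.06 and -1.82.

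Cell markers that differed between the same arrays stand beside this decrease. All 6 zona glomerulosa markers were lower in KO adrenals, with a mean log2 value of 6.93 to 7.31 in KO against 9.51 to 9.92 in WT arrays, among them *Vsnl1* (-4.75), a neuronal calcium sensor, *Cyp11b2* (-4.30), aldosterone synthase, and *Agtr1b* (-2.09), an angiotensin II receptor. The KO means of *Vsnl1*, 5.04, and *Agtr1b*, 5.32, lay near the background mark of 5.27, so these sizes are not exact. Of 3 X-zone markers 2 were lower, *Pik3c2g* (-0.93, with a KO mean of 5.13 in the background range) and *Thrb* (-0.90). The third, *Akr1c18*, did not differ, with a mean of 12.98 in KO and 12.95 in WT arrays (log2 fold change 0.03). The mean log2 value of the 3 was 8.72 to 8.95 in KO against 9.38 to 9.49 in WT arrays. The adipocyte markers, 8 of 11 lower, had log2 fold changes from -4.55 to 1.05 between the same arrays. Of 8 mesothelial markers, 2 were lower, *Upk1b* (-0.64) and *Upk3b* (-0.39), 1 was higher, *Wt1* (0.61), and the mean log2 value was 5.17 to 5.38 in KO against 5.29 to 5.50 in WT arrays. Of 12 markers of capsule and fibroblasts, 2 were higher, 1 of them *Lum* (1.25), a small proteoglycan of connective tissue, and 1 was lower, *Rspo3* (-0.85), a WNT enhancer of the capsule. The part of these cells in the decrease of *Aldh1a2* was not tested.

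*Aldh1a1*, a retinal dehydrogenase of many adult tissues, had values of 8.44, 10.70, 10.60 and 9.94 in KO arrays against 8.65, 8.85, 9.14 and 9.85 in WT arrays. KO replicate 1 was the lowest of all 8 arrays, and the other 3 KO arrays were the highest, with WT replicate 4 just below them. The mean was 9.92 ± 1.04 in KO and 9.12 ± 0.526 in WT adrenals (SD, n = 4 each), and *Aldh1a1* did not pass the test (log2 fold change 0.80, SE 0.448, interval -0.20 to 1.79, adjusted p = 0.305 from limma). Without KO replicate 1 the log2 fold change was 1.29 (SE 0.276) and the gene passed (adjusted p = 0.0139 from limma), so 1 array decided the call. The spread among KO arrays was at percentile 99.9 of all symbols and that among WT arrays at percentile 99.2.

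KO replicate 1 was also the lowest array in the gene next to it. *Aldh1a7*, a close rodent relative of *Aldh1a1* with no other protein-coding gene between them on chromosome 19, was named after its values were seen. Its values were 4.47, 8.54, 8.21 and 7.48 in KO arrays against 5.85, 6.74, 6.68 and 7.16 in WT arrays. The order of the 4 KO arrays and the highest and lowest WT array were those of *Aldh1a1*. *Aldh1a7* did not pass (log2 fold change 0.57, SE 0.739, adjusted p = 0.695), and without KO replicate 1 it had a log2 fold change of 1.47 (adjusted p = 0.0127 from limma). Because the genes are close relatives, probes of either cluster may bind RNA of both, and the clusters are not independent measurements.

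Marker lists differed in where KO replicate 1 lay. It was the lowest KO array in all 12 capsule and fibroblast markers and in all 7 chromaffin markers, against 30.1% of all symbols. The mean log2 value of the capsule and fibroblast markers was 7.75, 8.44, 8.51 and 8.38 in KO arrays against 8.10, 8.0, 8.21 and 8.01 in WT arrays. That of the chromaffin markers was 9.32, 9.83, 9.61 and 9.61 in KO arrays against 9.72, 9.76, 9.51 and 9.57 in WT arrays. In 8 of 11 adipocyte markers KO replicate 1 was the lowest KO array as well, whereas this held for 4 of 7 endothelial, 4 of 7 macrophage, 3 of 8 mesothelial, 1 of 6 gonadal and 0 of 6 hepatocyte markers. KO replicate 1 had the highest KO mean in the cortex markers, 12.16, and in the gonadal markers, 6.07. The same held for the zona glomerulosa markers, 7.31, and the X-zone markers, 8.95. It was the lowest KO array in 1 of 8 cortex, 0 of 6 zona glomerulosa and 1 of 3 X-zone markers. Its endothelial mean of 9.17 lay above every WT array. The gonadal mean leans on *Hsd17b3*, at 7.36 in KO replicate 1 against 5.05, 5.42 and 5.45 in the other KO arrays. The part of these cells in the low *Aldh1a1* of that array was not tested.

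**Figure D2:**
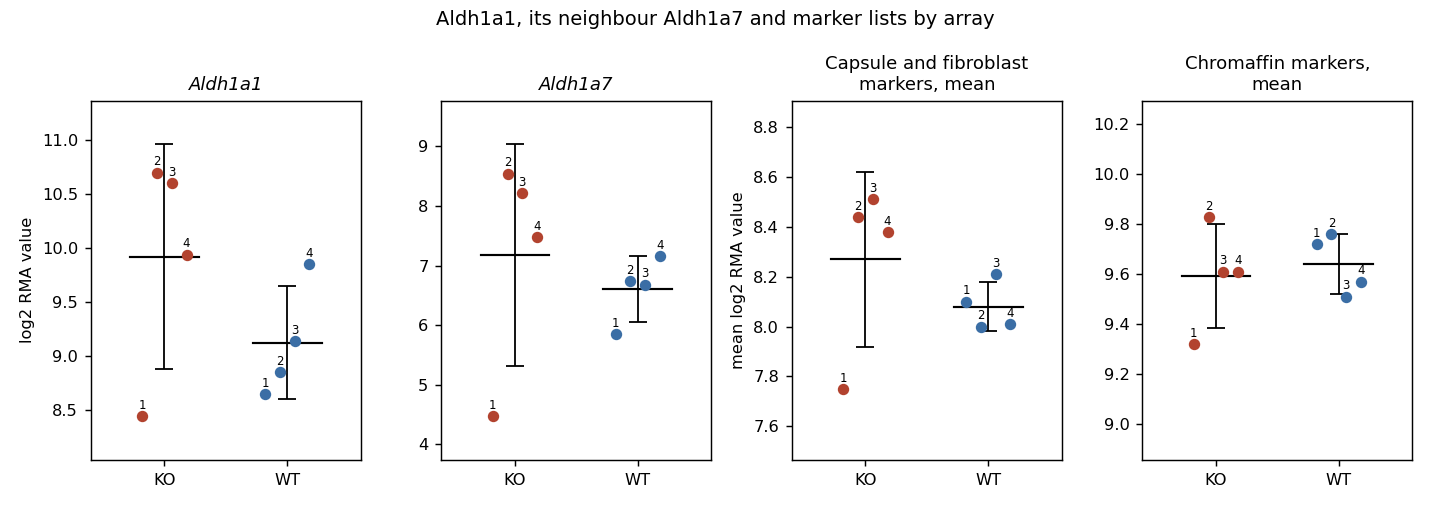
Log2 RMA values of *Aldh1a1* and *Aldh1a7* and mean log2 values of 12 capsule and fibroblast markers and of 7 chromaffin markers in 4 KO (red) and 4 WT (blue) adrenals, with the mean and 1 SD. KO replicate 1 is the lowest of the 8 arrays in all 4 panels, at 8.44, 4.47, 7.75 and 9.32.

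*Aldh1a3*, the third retinal dehydrogenase, had values of 6.16, 6.84, 6.67 and 6.51 in KO arrays against 6.48, 6.53, 6.38 and 6.48 in WT arrays. KO replicate 1 was again the lowest and KO replicate 2 the highest, so the KO arrays spread on both sides of the WT arrays. The log2 fold change was 0.0764 (SE 0.125, interval -0.20 to 0.35), and the gene did not pass the test. Its KO spread, at percentile 94.6 of all symbols, stood beside a WT spread at percentile 13.5.

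The retinoic acid binding proteins were dim. *Crabp1* had values of 5.19, 5.26, 5.04 and 5.47 in KO arrays against 5.19, 5.13, 5.14 and 5.71 in WT arrays, and *Crabp2* had 5.35, 5.40, 5.37 and 5.05 in KO arrays against 5.50, 5.38, 5.36 and 5.32 in WT arrays. These values lie around the 95th percentile of the olfactory receptor clusters, so a low level cannot be told from background. Neither passed the test, with log2 fold changes of -0.054 (interval -0.36 to 0.25) for *Crabp1* and -0.096 (interval -0.29 to 0.10) for *Crabp2*. *Cyp26b1*, which hydroxylates retinoic acid for removal, had 5.66, 5.49, 5.88 and 5.97 in KO arrays against 5.98, 5.67, 5.66 and 6.02 in WT arrays. The genotypes overlapped, and the log2 fold change was -0.0855 (SE 0.124, interval -0.36 to 0.19). With array weights the values of *Crabp1* and *Cyp26b1* turned positive.

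**Figure D3:**
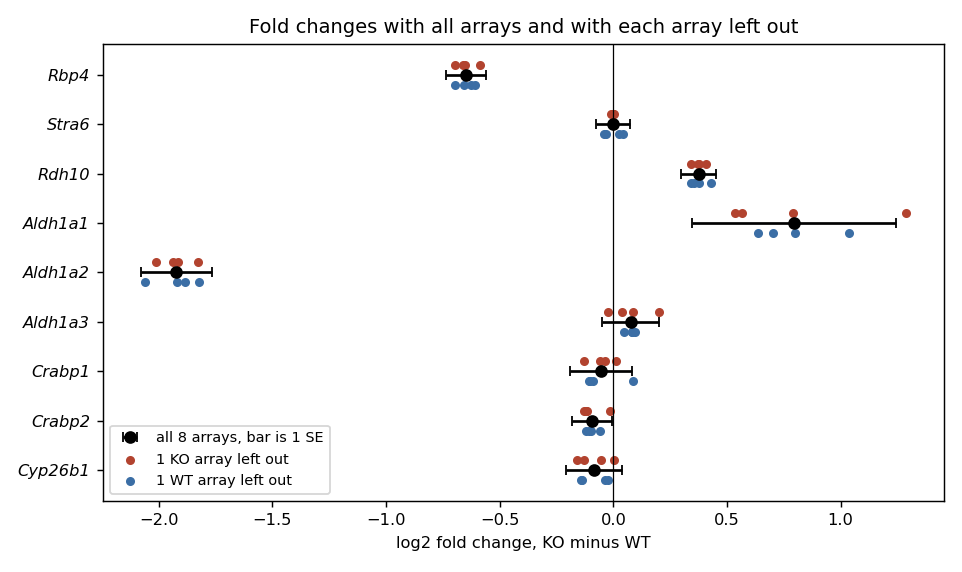
Log2 fold change (KO minus WT) of the 9 genes. Black points are the values with all 8 arrays with 1 SE, red points leave out 1 KO array and blue points leave out 1 WT array. *Aldh1a2* stays between -2.06 and -1.82, whereas *Aldh1a1* runs from 0.54 to 1.29.

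The other genes of the pathway were read from a list of 43, of which 42 were measured. Of these, 1 was higher, 5 were lower and 36 did not pass. Their median log2 fold change was -0.0626. Over all symbols 7.47% were higher and 6.30% lower.

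*Rdh1*, a retinol dehydrogenase of the mouse, had the largest decrease in this list. Its values were 6.49, 6.26, 5.89 and 6.16 in KO arrays against 7.69, 7.50, 8.14 and 7.61 in WT arrays, with a wide gap between the genotypes. It fell by 1.53 (log2, SE 0.153), with an adjusted p of 1.21e-04 from limma. *Rdh9*, its neighbour on chromosome 10 and a relative, had 6.85, 6.21, 6.03 and 6.13 in KO arrays against 6.98, 7.15, 7.15 and 6.96 in WT arrays. KO replicate 1 lay just under the WT arrays, the log2 fold change was -0.76 (SE 0.157, adjusted p = 0.0091 from limma), and the call was lost with per-gene tests of equal (0.0681) and unequal (0.148) variances. *Rdh16*, the next gene, had a mean of 4.53 in KO and 4.70 in WT arrays, in the range of background.

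*Dhrs3*, which reduces retinal back to retinol and is induced by retinoic acid in several tissues, had 7.71, 8.09, 8.16 and 8.34 in KO arrays against 9.05, 9.14, 9.19 and 8.67 in WT arrays. It fell by 0.94 (SE 0.145, adjusted p = 0.0017 from limma), with WT replicate 4 the closest to the KO arrays. *Dhrs4*, a peroxisomal reductase that also acts on retinal, fell by 0.34 (SE 0.0833, adjusted p = 0.02 from limma), and this call was lost with per-gene tests of equal (0.056) and unequal (0.136) variances and without KO replicate 3 (0.0528) or KO replicate 4 (0.0596).

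The alcohol dehydrogenases of chromosome 3 moved in different directions. *Adh1*, which oxidises ethanol and retinol, had 12.53, 12.39, 12.26 and 12.24 in KO arrays against 12.73, 12.84, 12.92 and 12.75 in WT arrays and fell by 0.46 (SE 0.0816, adjusted p = 0.00401 from limma). A second *Adh1* cluster near background gave -0.13 and did not pass. *Adh7*, which lies next to it and is an efficient retinol dehydrogenase, was named after its values were seen, with 11.99, 11.64, 11.54 and 11.35 in KO arrays against 9.43, 11.02, 10.96 and 11.19 in WT arrays. Every KO array of *Adh7* lay above every WT array, yet the gene did not pass (log2 fold change 0.98, SE 0.333, adjusted p = 0.0835 from limma). WT replicate 1 stood far below the other WT arrays, and it was also the lowest WT array in the adipocyte mean, at 7.91 against 9.55 to 9.95. Among KO arrays, where *Adh7* was highest, the adipocyte mean was 6.67 to 8.30. The part of fat in the *Adh7* values was not tested. Without WT replicate 1 the log2 fold change was 0.58 (SE 0.139) and the gene passed (adjusted p = 0.0255 from limma). *Adh5*, which acts mainly on glutathione-bound formaldehyde, rose by 0.33 (SE 0.0794, adjusted p = 0.0205 from limma), and the call was lost with per-gene tests of equal (0.0507) and unequal (0.0677) variances and without KO replicate 1 (0.0521), KO replicate 4 (0.0564) or WT replicate 1 (0.0537).

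**Figure D4:**
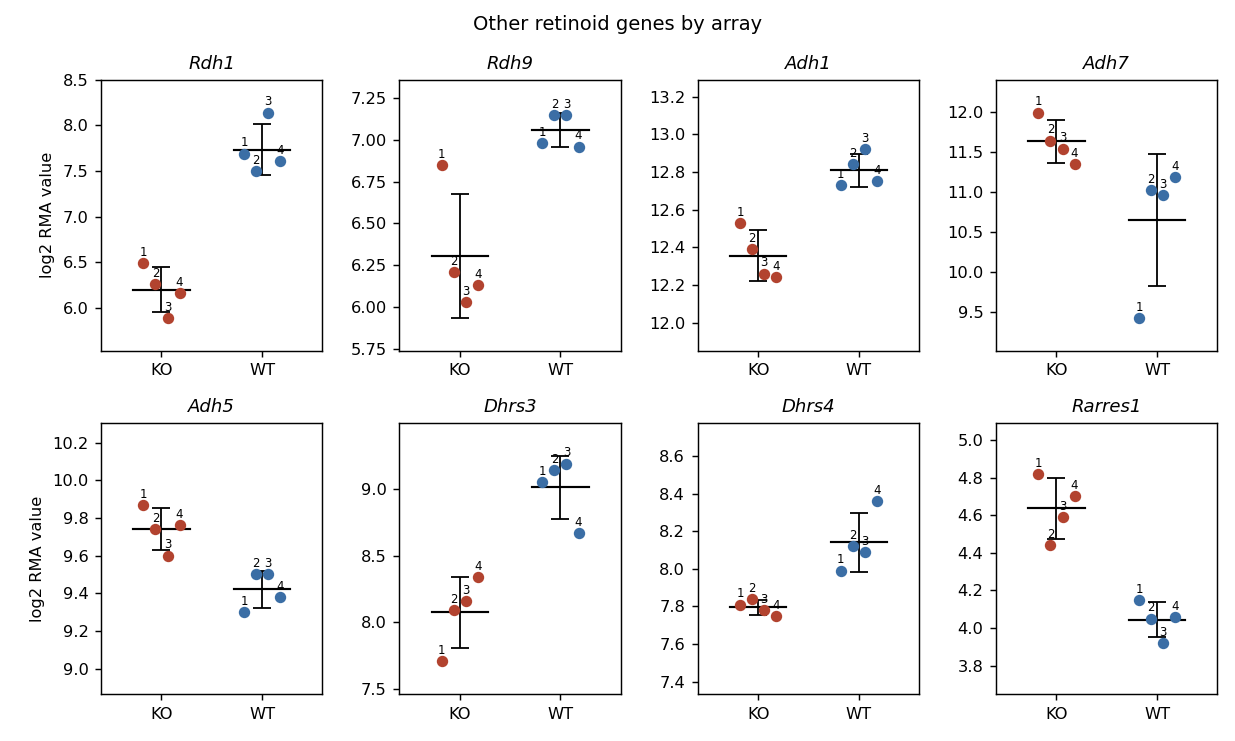
Log2 RMA value of 8 further retinoid genes in 4 KO (red) and 4 WT (blue) adrenals, with replicate numbers, the mean and 1 SD. *Rdh1* and *Dhrs3* show the widest gaps below WT, and WT replicate 1 of *Adh7*, at 9.43, stands apart.

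No retinoic acid receptor gene passed the test. *Rara*, *Rarb* and *Rarg* had log2 fold changes of -0.0197 (interval -0.20 to 0.16), 0.27 (interval -0.06 to 0.60) and 0.0416 (interval -0.10 to 0.18), and the sign of *Rara* turned when arrays were centred on their medians. The partner receptors *Rxra*, *Rxrb* and *Rxrg* had -0.22 (adjusted p = 0.142 from limma), -0.24 (adjusted p = 0.243) and -0.32 (adjusted p = 0.111), and *Rxrg* was near background, with a mean of 4.28 in KO and 4.60 in WT arrays.

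Genes that retinoic acid is known to induce in some tissue were read from a list of 11, of which 9 were measured and 4, *Rarb*, *Cyp26a1*, *Dhrs3* and *Lrat*, are also in the pathway list. Of the 9, 1 was higher and 2 were lower, *Dhrs3* among them, and the median of the log2 fold changes was -0.169. Over all symbols 7.47% were higher and 6.30% lower, and counts of 1 and 2 are too small to set apart from these shares. *Rarres1*, a retinoid-induced membrane protein, rose by 0.59 (SE 0.0909, adjusted p = 0.00164 from limma), with 4.82, 4.44, 4.59 and 4.70 in KO arrays against 4.15, 4.05, 3.92 and 4.06 in WT arrays. All its values lay below the 95th percentile of the olfactory receptor clusters, so the size of this change is not exact. *Nrip1*, a corepressor of nuclear receptors, fell by 0.34 (SE 0.062, adjusted p = 0.00415 from limma), with 9.32, 9.22, 9.31 and 9.34 in KO arrays against 9.59, 9.63, 9.66 and 9.69 in WT arrays. *Cyp26a1*, the retinoic acid hydroxylase whose gene is a direct target of retinoic acid, had a mean of 4.12 in KO and 4.29 in WT arrays, within the background range, and did not pass (log2 fold change -0.17, adjusted p = 0.144 from limma).

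**Figure D5:**
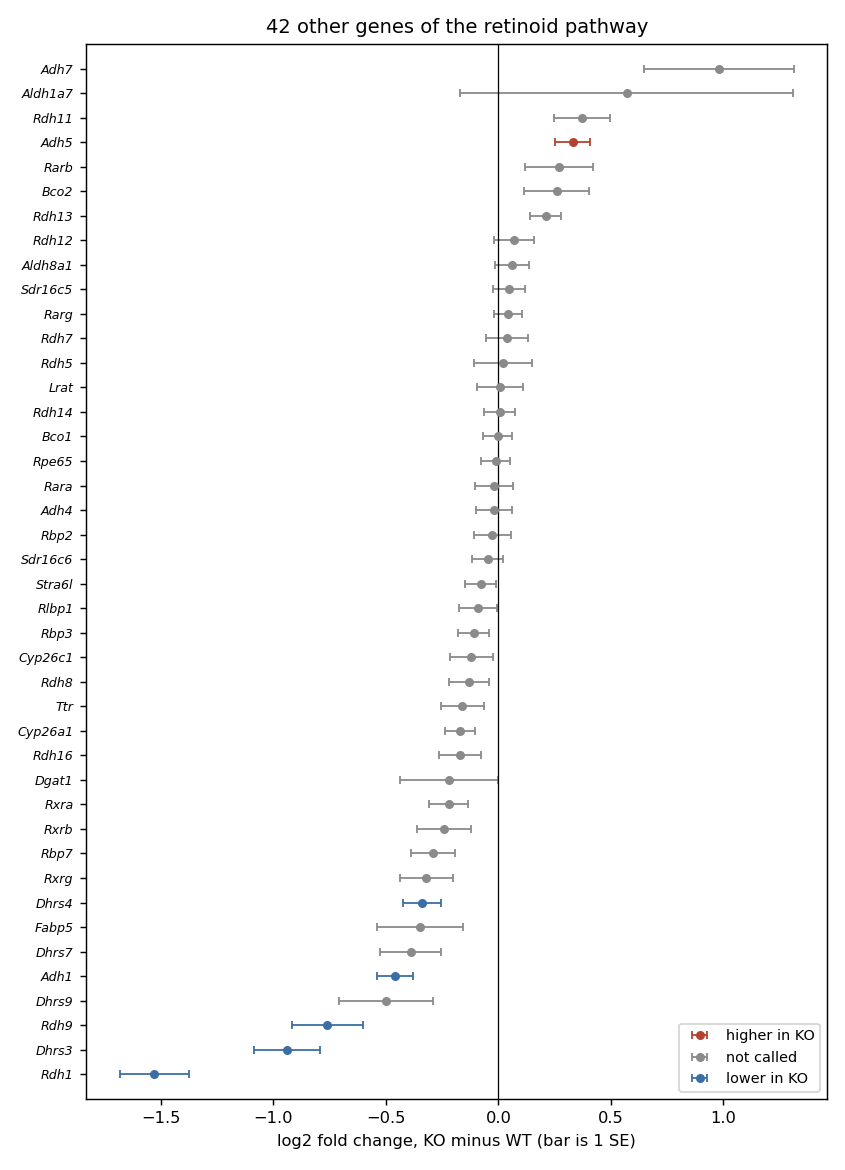
Log2 fold change (KO minus WT, with 1 SE) of the 42 other measured genes of the retinoid pathway, in order of size. Red marks the 1 gene higher in KO adrenals, blue the 5 lower and grey the 36 that did not pass, and *Adh7* and *Aldh1a7* have the largest positive values with wide errors.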

How the data were processed

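Total RNA of whole adrenals was measured on Affymetrix Mouse Gene 2.0 ST arrays. The authors normalized the arrays by RMA with the affy package for R (version not given in the sources used here), and the deposited values are log2 RMA values, 1 per transcript cluster and array. RMA equalises the distributions of the arrays, so a shift shared by all genes is not seen, and it compresses changes of dim genes. A second deposited table holds the authors' own fold changes and adjusted p-values and was not used.

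Of 28067 clusters, 22822 carried exactly 1 gene symbol in the platform annotation and were tested. The 1703 with several symbols and the 3542 with none were left out. A symbol with several clusters was read from its brightest cluster on average. Some listed genes are not reported here. Of the tested clusters, 22679 had a gene identifier in the RefSeq table.

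KO was compared with WT, two-sided, in R 4.3.3 with the lmFit and eBayes functions of limma 3.58.1, and p-values were adjusted over all tested clusters by Benjamini–Hochberg. The methods name a *t*-test, which was run as an alternative. SE and 95% intervals are limma's. With 4 arrays per genotype an exact permutation test of 1 gene cannot give a p below 0.0286. The labels call the samples biological replicates. Python 3.11.15 and pandas 2.3.3 prepared the tables. The procedure was tested on simulated data.

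The members, lists and the rule for named genes were chosen with earlier results of these data known. The rule names the 9 genes, *Prkar1a*, every called pathway or responsive gene, the retinoid receptors, *Dhrs3* and *Cyp26a1*, and up to 3 markers per list by size of change. *Aldh1a7*, *Adh7* and *Rdh16* were named after their values were seen. Alternatives were Student's and Welch's tests, the replicate number as a block, dim clusters left out, an intensity trend with robust variance, array weights, median centring, repeated quantile normalization, all clusters, other clusters of a gene, the methods' added threshold of 1 on the log2 fold change, and each array left out.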

Additional observations from a re-analysis of the deposited data

Results flagged for a closer look

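An array was examined for standing apart where its gap to the nearest array of its genotype was a larger share of that genotype's range than Dixon's 95% critical value for 4 arrays. Among 52 groups of 4 arrays, from 26 genes, 4 had such an array, and chance gives about 1 in 20 groups. *Crabp1* in WT replicate 4 was 5.71, with the other WT arrays between 5.13 and 5.19. *Crabp2* in KO replicate 4 was 5.05, with the other KO arrays between 5.35 and 5.40. *Cyp26a1* in WT replicate 1 was 4.42, with the other WT arrays between 4.24 and 4.27. *Adh7* in WT replicate 1 was 9.43, with the other WT arrays between 10.96 and 11.19. The first 3 lie near background. *Aldh1a1* and *Aldh1a7* in KO replicate 1 did not meet this criterion.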

How the results depend on the processing

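Of the 9 genes, the 2 that were lower stayed lower and called in every alternative that changed only the fit, the arrays or the clusters tested. With the added threshold of 1 on the log2 fold change, 1 of them and none of the higher genes remained, the pathway list had 0 higher and 1 lower, and 246 clusters were higher and 212 lower overall. With Welch's test 0 of the 9 genes were higher, the pathway list had 0 higher and 3 lower, and 710 clusters were higher and 492 lower. With Student's test the pathway list had 0 higher and 3 lower, and 920 clusters were lower. Without dim clusters the pathway list had 2 higher. Leaving out each array gave 1 to 2 higher of the 9 genes (2 without KO replicate 1) and 0 to 2 higher in the pathway list (0 without KO replicate 4, 2 without WT replicate 2). The lower genes of the pathway list then numbered 4 to 7 (4 without KO replicate 3 or 4, 7 without WT replicate 1). With array weights they numbered 6. Why these counts moved was not tested, apart from the stricter threshold.

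Signs turned only in genes that did not pass. *Crabp1* was 0.047 and *Cyp26b1* 0.0068 with array weights. *Stra6* was 0.025 and *Rara* 0.0070 with centring, and *Stra6* was 0.030 after quantile normalization. Leaving out arrays gave *Aldh1a3* -0.022 to 0.20, *Crabp1* -0.13 to 0.085, *Cyp26b1* -0.16 to 0.0017, *Stra6* -0.043 to 0.043 and *Rara* -0.066 to 0.032.

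The labels give both genotypes replicates 1 to 4. The deviations of same-numbered arrays correlated at -0.014, 0.021, 0.042 and -0.04, and no array correlated best with its own number. These values show no shared deviation, but they cannot tell whether same-numbered arrays came from littermates. With the number as a block the SE went from 0.155 to 0.0777 for *Aldh1a2* and from 0.448 to 0.321 for *Aldh1a1*. For *Adh5* it went up, from 0.0794 to 0.0939. With the number as a block 1423 clusters were higher and 1185 lower, 1 of the 9 genes was higher and 2 lower, and the pathway list had 0 higher and 5 lower, since *Adh5* missed the threshold (0.0667).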
